A study of Mus musculus with 4 samples.

Results

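Genes of cholesterol synthesis, sterol sensing and intracellular sterol transport were described in mouse liver at 4, 8, 13 and 21 months of age. The set was named by pathway role, with earlier results of these data known, and holds 28 genes: 20 enzymes from acetoacetyl-CoA to cholesterol, 4 regulators and 4 genes of sterol transport and esterification. Of the 28, 26 had a probe set annotated to them alone, out of 18193 genes with such a probe set on the array. Acat2 and Soat2 were not analysed here. Where a gene had several probe sets, the one with the highest mean over the ages was used. All 26 lay at or above a level of 3.74, the median over probe sets, which 11587 genes reached and which served as a filter on dim signals.

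Each of the 4 groups was a pool of liver RNA from 6 male C57BL/6J mice, an inbred strain, of 4, 8, 13 or 21 months. The mice of every group were bought at 4 weeks of age and had free access to a low-fat diet, begun 1 week before the experiment. Age and time on this diet cannot be told apart in these pools. Each pool was hybridised to 1 oligonucleotide array, on which groups of short probes (probe sets) each report 1 transcript. No array was repeated, so the spread between mice is unknown, no test between ages could be made and no p-value is given. Values are log2 levels. A difference of 1 is 2-fold, and levels of different genes cannot be set against each other because probe sets differ in brightness.

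Cells make cholesterol from acetyl-CoA through mevalonate, isoprenoid diphosphates, squalene and lanosterol. The liver is a main site of this synthesis. When sterols are scarce in the endoplasmic reticulum, SCAP carries the membrane-bound transcription factor SREBP2, encoded by Srebf2, to the Golgi, where proteases release its active part. When sterols are plentiful, the INSIG proteins hold SCAP back. The factor binds sterol regulatory elements in the promoters of most genes of the pathway, commonly together with NF-Y and Sp1. Cholesterol taken up in lipoproteins leaves lysosomes through NPC2 and NPC1, and STARD4 moves sterols between membranes.

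Because most of the enzymes are known to share this control, promoter sequences are shown for Msmo1, Npc2 and Hmgcs1. They are the 3 genes with the largest higher levels at 21 than at 4 months that had a usable window in the promoter table. The sequences are RefSeq's on GRCm38.p6, a build the array files do not name, and run 5′ to 3′ over the 250 bases before the transcription start. Capitals mark matches on either strand to CCAAT (the NF-Y box), GGGCGG (the Sp1 box), CACGTG (the E-box) and the sterol element form TCACNCCAC or its shorter part CACNCCAC. The windows are chr8:64733579-64733828 on the minus strand, chr12:84773113-84773362 on the minus strand and chr13:119690101-119690350 on the plus strand.
Msmo1: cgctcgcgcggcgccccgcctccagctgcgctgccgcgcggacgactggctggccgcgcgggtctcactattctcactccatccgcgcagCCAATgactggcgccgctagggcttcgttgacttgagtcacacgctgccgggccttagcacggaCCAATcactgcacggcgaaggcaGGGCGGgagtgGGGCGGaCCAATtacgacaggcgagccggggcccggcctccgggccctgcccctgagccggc
Npc2: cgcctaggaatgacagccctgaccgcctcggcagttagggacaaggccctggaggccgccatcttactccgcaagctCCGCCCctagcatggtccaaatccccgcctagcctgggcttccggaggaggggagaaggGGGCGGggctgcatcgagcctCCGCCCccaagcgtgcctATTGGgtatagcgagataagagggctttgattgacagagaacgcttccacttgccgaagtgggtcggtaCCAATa
Hmgcs1: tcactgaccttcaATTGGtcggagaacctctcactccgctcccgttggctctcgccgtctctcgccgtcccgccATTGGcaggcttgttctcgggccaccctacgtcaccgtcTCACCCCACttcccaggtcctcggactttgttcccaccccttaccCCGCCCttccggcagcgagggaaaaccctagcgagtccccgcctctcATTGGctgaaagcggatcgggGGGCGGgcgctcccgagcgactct

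The Hmgcs1 window holds the sterol element form TCACCCCAC, beginning 137 bases before the start, between a CCAAT box and a GGGCGG box. It was the only member window with the form TCACNCCAC. The Msmo1 window has 3 CCAAT boxes and 2 GGGCGG boxes, and 1 of the CCAAT boxes begins 55 bases before the start. The motif search covered 300 bases from 250 before to 50 after the start, in 28 windows of 22 of the 28 genes. The table gave none for Fdps, Fdft1, Sqle, Stard4, Npc1 and Soat2. CCAAT was in 20 of 28 windows (71.4%), against 37.4% of all 32851 windows and 37.1% of the windows of genes above the filter. GGGCGG was in 23 of 28 (82.1%), against 35.7% of all windows and 60.0% of those of genes above the filter. CACGTG was in 6 windows, of 5 genes (21.4% of windows, against 7.15% of all and 9.88% of those of genes above the filter). CACNCCAC, which every TCACNCCAC match contains, was in 3 windows (10.7%, against 6.24% and 6.38%). TCACNCCAC was in 1.24% of all windows and 1.17% of those of genes above the filter. These are matches of letters in a reference sequence, several genes have more than 1 window, and some of these windows overlap.

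Most enzymes of the pathway were somewhat higher at 21 months than at 4 months, by less than 2-fold. Of 19 enzymes 18 were higher, none was lower and Ggps1 was equal, with a median log2 difference of 0.28. Over all 26 genes 20 were higher and 4 lower, and the median was 0.25, whereas 51.4% of all genes were higher and 45.2% lower, with a median of 0.01. The 1.5-fold mark was reached by 2 of the 26, Sqle and Fdft1, and 2.11% of all genes reached it in that direction. None of the 26 reached 2-fold, which 0.561% of all genes did. None of the 26 was 1.5-fold lower (0.423% of all genes). At a lower mark, a log2 difference of 0.322, 5 of the 26 were higher, Sqle, Fdft1, Msmo1, Npc2 and Hmgcs1, against 6.14% of all genes.

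**Figure D1:**
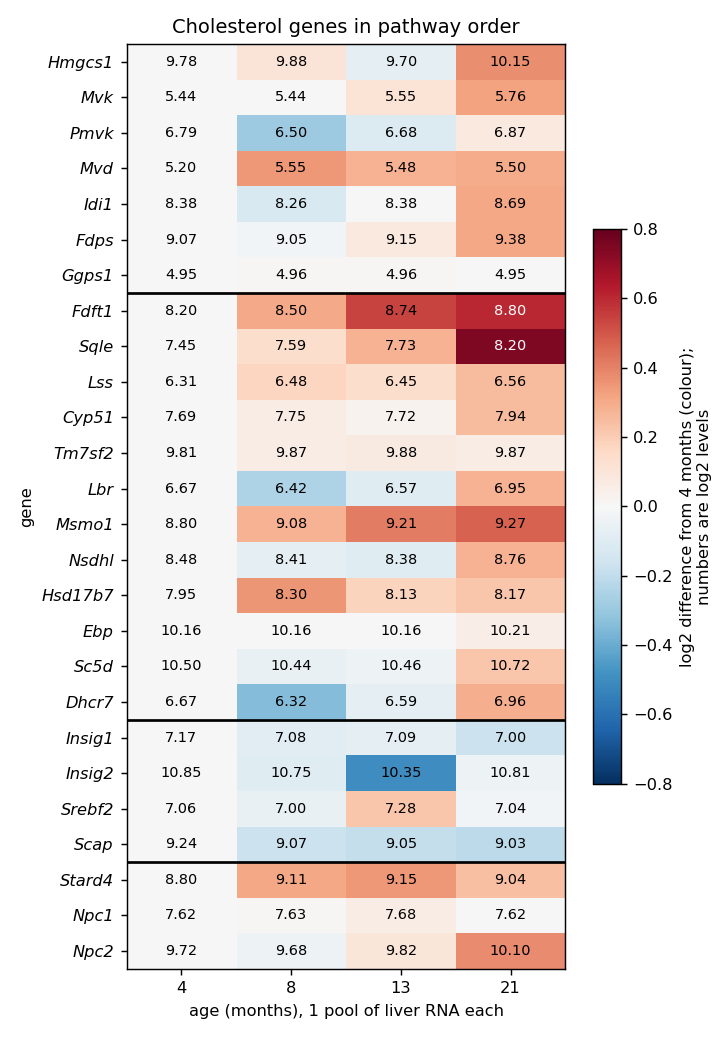
Log2 level of each of the 26 genes (rows, in pathway order, with lines between enzymes of the mevalonate and isoprenoid part, squalene and sterol enzymes, regulators, and transport genes) in the pool of each age in months (columns). Numbers are levels and colours the log2 difference from the 4-month pool; Sqle reached 8.20 at 21 months from 7.45, and Insig2 was lowest at 13 months, at 10.35.

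The first enzymes lead from acetoacetyl-CoA to mevalonate and its phosphates. Hmgcs1, which makes HMG-CoA in the cytosol, was at 9.78, 9.88, 9.70 and 10.15 at 4, 8, 13 and 21 months. The 3 younger pools lay within 0.18 of each other and the oldest was above all of them, 0.37 over the 4-month pool. The 3 other Hmgcs1 probe sets above the filter were higher at 21 than at 4 months by 0.26, 0.33 and 0.40.

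Mvk, mevalonate kinase, was at 5.44, 5.44, 5.55 and 5.76, so that the 21-month pool stood 0.32 above the youngest. Its second probe set differed by 0.00. Pmvk, phosphomevalonate kinase, was at 6.79, 6.50, 6.68 and 6.87. It was lowest at 8 months, and its 21-month level exceeded the 4-month level by only 0.08. Mvd, which decarboxylates mevalonate diphosphate, was at 5.20, 5.55, 5.48 and 5.50. In this probe set the 4-month pool was the one apart, and the 3 older pools lay within 0.07 of each other. A second Mvd probe set was at 4.81, 4.98, 5.06 and 5.17, higher at every step.

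The isoprenoid enzymes build the chains from which sterols, ubiquinone, dolichol and protein prenyl groups are made. Idi1, the isomerase of isopentenyl diphosphate, was at 8.38, 8.26, 8.38 and 8.69, highest at 21 months by 0.31 over both 4 and 13 months. Fdps, farnesyl diphosphate synthase, was at 9.07, 9.05, 9.15 and 9.38, with the oldest pool above the others. Ggps1, which makes geranylgeranyl diphosphate for protein prenylation rather than for sterols, was at 4.95, 4.96, 4.96 and 4.95. No difference between ages was seen for this probe set, although another Ggps1 probe set went from 4.90 to 4.58.

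In the probe sets used, squalene epoxidase and squalene synthase had the largest differences of the pathway between 21 and 4 months. Sqle, whose product squalene epoxide is the substrate of ring closure, was at 7.45, 7.59, 7.73 and 8.20. It was higher at every step between ages, and at 21 months it was 1.68-fold above 4 months, a log2 difference of 0.75. Of all genes 98.6% had a smaller signed difference.

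Fdft1, which joins farnesyl units to squalene at the branch point to sterols, was at 8.20, 8.50, 8.74 and 8.80. Most of the difference of 0.60 (1.52-fold) was present by 13 months, where the gene was already 0.54 above 4 months. With quantile normalization or cyclic loess its difference was 0.54 or 0.57, short of 1.5-fold. A second Fdft1 probe set above the filter gave 7.52, 7.65, 7.94 and 8.02 and the same order of ages. The probe set used carries the suffix x, which marks probes that may also match other sequences.

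Lss, which closes the rings to lanosterol, was at 6.31, 6.48, 6.45 and 6.56 in its brightest probe set, a difference of 0.25 between the oldest and youngest pools. A dimmer Lss probe set went from 4.12 through 4.44 and 4.64 to 4.88, a difference of 0.76. Both were lowest at 4 and highest at 21 months.

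**Figure D2:**
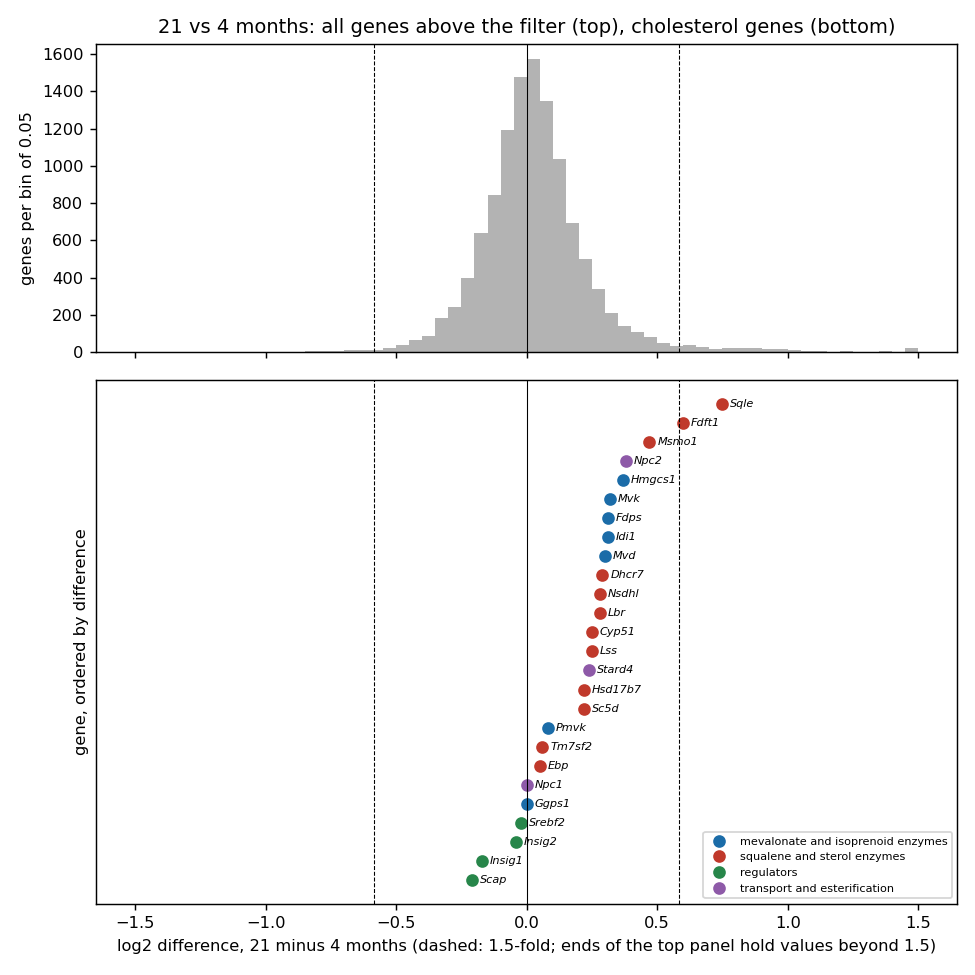
Log2 difference between 21 and 4 months, for all 11587 genes above the filter (top, number of genes per bin of 0.05) and for each of the 26 cholesterol genes (bottom, ordered by difference and coloured by role). Dashed lines are 1.5-fold; Sqle and Fdft1 lie beyond it, and in the probe sets used the 4 regulators are the only members below 0, which for Insig2 and Srebf2 does not hold in other probe sets.

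Of the enzymes that turn lanosterol into cholesterol, Msmo1 differed most between 21 and 4 months in the probe sets used. Msmo1, the sterol C4 methyl oxidase, was at 8.80, 9.08, 9.21 and 9.27. Like Sqle and Fdft1 it was higher at every step, and most of its difference of 0.47 was present by 13 months. Of the 26 genes 3 were higher at every step, against 4.38% of all genes.

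Cyp51, the lanosterol 14-alpha-demethylase, was at 7.69, 7.75, 7.72 and 7.94, and the younger pools were within 0.06 of each other. Its 2 other probe sets above the filter disagreed, with 0.59 and -0.11 between 21 and 4 months. Nsdhl, which removes the oxidised C4 group with Hsd17b7, was at 8.48, 8.41, 8.38 and 8.76, again with only the oldest pool apart. Hsd17b7 itself was at 7.95, 8.30, 8.13 and 8.17, highest at 8 months. This probe set also carries the suffix x, and the 2 other Hsd17b7 probe sets above the filter were highest at 8 months too.

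The sterol reductases Tm7sf2 and Lbr can both reduce the C14 double bond, and Lbr is also a receptor for lamin B in the nuclear envelope. Tm7sf2 was at 9.81, 9.87, 9.88 and 9.87 and spanned 0.07. Lbr was at 6.67, 6.42, 6.57 and 6.95, with the 8-month pool lowest and the 21-month pool highest.

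Ebp, the sterol isomerase, was at 10.16 in each of the 3 younger pools and at 10.21 at 21 months. Sc5d, the sterol C5 desaturase, was at 10.50, 10.44, 10.46 and 10.72. Dhcr7, which reduces 7-dehydrocholesterol to cholesterol, was at 6.67, 6.32, 6.59 and 6.96. It was lowest at 8 months like Lbr and Pmvk, and between 8 and 21 months it differed by 0.64 (1.56-fold), the largest such difference among the probe sets used, where another Idi1 probe set gave 0.67.

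The regulators did not follow the enzymes. All 4 were below their 4-month level at 21 months, by small amounts (median -0.105), and the direction turned with the choice of probe set for Insig2 and Srebf2 and with centring of the arrays for Srebf2. Insig1, which retains SCAP in the endoplasmic reticulum and is itself a target of SREBP2, was at 7.17, 7.08, 7.09 and 7.00. Scap, the escort of the SREBPs, was at 9.24, 9.07, 9.05 and 9.03, and was the only member lower at every step, against 3.14% of all genes. The 2 Scap steps after 8 months were of 0.02 each.

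Srebf2 was at 7.06, 7.00, 7.28 and 7.04, highest at 13 months. Its second probe set was higher at 21 than at 4 months by 0.17 where the first was at -0.02, so no direction can be given for this gene between these ages. The array measures its messenger RNA and not the released factor.

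Insig2, the other INSIG gene, was at 10.85, 10.75, 10.35 and 10.81. The 13-month pool was low by 0.50 against 4 months, and by 0.40 and 0.46 against its neighbours in age. The 2 other Insig2 probe sets were lowest at 13 months too, at 8.62 against 8.98 to 9.28 and at 9.70 against 10.06 to 10.38. Between 21 and 4 months the 3 probe sets differed by -0.04, 0.04 and 0.17. Insig2 was the only member lower by 0.322 or more at 13 than at 8 months, as were 2.87% of all genes.

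The transport genes varied singly. Npc2, a soluble lysosomal protein that binds cholesterol, was at 9.72, 9.68, 9.82 and 10.10, and its other 2 probe sets above the filter were also higher at 21 than at 4 months, by 0.43 and 0.25. Npc1, the membrane protein that receives sterol from it, was at 7.62, 7.63, 7.68 and 7.62 and spanned 0.06. Stard4, a cytosolic sterol carrier and SREBP2 target, was at 8.80, 9.11, 9.15 and 9.04, with the youngest pool below the 3 others. All 3 Stard4 probe sets were lowest at 4 months.

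**Figure D3:**
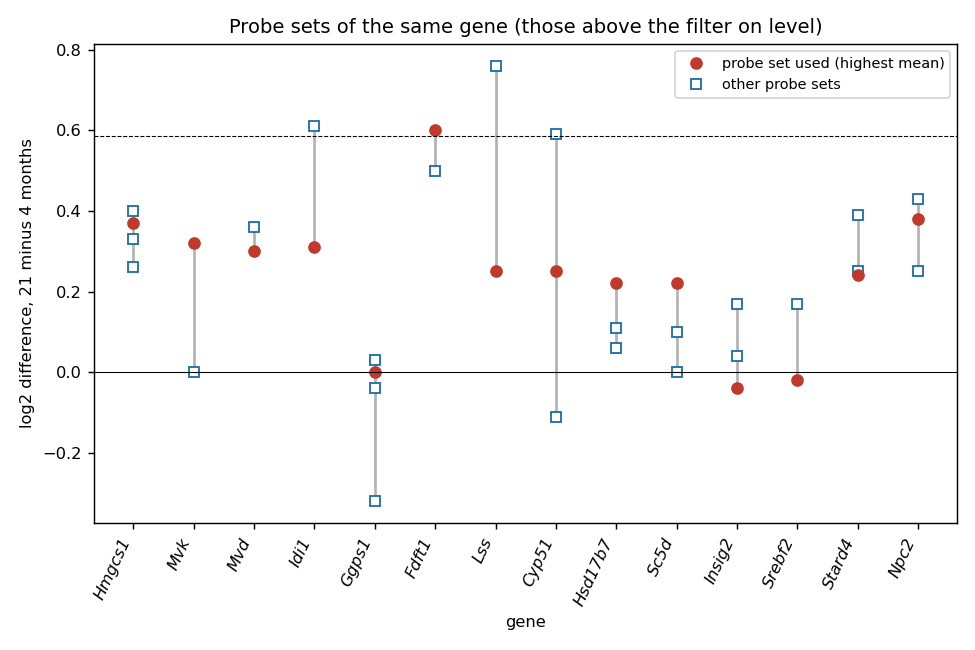
Log2 difference between 21 and 4 months for each probe set above the filter of the 14 cholesterol genes that have several (38 probe sets). Filled circles are the probe set used and open squares the others. Idi1, Lss and Cyp51 each have another probe set beyond the dashed 1.5-fold line, at 0.61, 0.76 and 0.59. For Cyp51, Ggps1, Insig2 and Srebf2 the probe sets lie on both sides of 0.

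Probe sets of the same gene give the only repeat of a measurement within these arrays, and they share the RNA and the hybridisation. For 21 vs 4 months the pooled SD between probe sets of a gene was 0.168 over 14 genes with 38 probe sets. In 8 of the 14 all probe sets had the same sign, and the others were Cyp51, Ggps1, Insig2, Mvk, Sc5d and Srebf2, in which at least 1 probe set was at 0 or on the other side. The differences of Sqle, Fdft1, Msmo1, Npc2 and Hmgcs1 were over 2 times this SD, whereas those of Pmvk, Tm7sf2, Ebp, Ggps1, Npc1, Srebf2 and Insig2 were below it. Sqle, Msmo1, Pmvk, Tm7sf2, Ebp and Npc1 have only 1 probe set above the filter and did not enter the SD. It measures disagreement between probe sets and not the spread between pools or mice, so it is no test of a difference between ages. Counting a gene by any of its probe sets above the filter, a rule chosen after the values were seen, Idi1, Lss and Cyp51 joined Sqle and Fdft1 past 1.5-fold, which makes 5 of 26 against 2.42% of all genes.

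The genes did not reach their 21-month levels along 1 course. At 8 vs 4 months 12 were higher and 12 lower, with a median of 0.00, where 47.5% of all genes were higher and 48.7% lower. None was 1.5-fold apart in either direction (0.501% and 0.354% of all genes). At the lower mark of 0.322 Mvd and Hsd17b7 were higher (3.24% of all genes) and Dhcr7 lower (3.1%). Other probe sets above the filter fell short of the mark, with 0.17 for Mvd and 0.18 and 0.18 for Hsd17b7. At 13 vs 8 months 16 were higher and 8 lower (50.2% and 45.9% of all genes), with a median of 0.03, and none was 1.5-fold apart (0.716% and 0.362%).

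The last interval held most of the difference for the enzymes. At 21 vs 13 months 17 of the 19 enzymes were higher and 2 lower, with a median of 0.21. Over all 26 genes 19 were higher and 7 lower (50.4% and 46.4% of all genes), with a median of 0.15, and again none reached 1.5-fold (1.47% and 0.457%). With the mean of all probe sets of a gene, those below the filter included, the median was 0.095. Sqle with 0.47, Insig2 with 0.46, Hmgcs1 with 0.45, Lbr and Nsdhl with 0.38 each and Dhcr7 with 0.37 passed the lower mark, as did 6.12% of all genes. Of the 26 genes 16 had their highest level at 21 months alone, against 30.3% of all genes, and among the 19 enzymes 15 did so, the others being Mvd, Ggps1, Tm7sf2 and Hsd17b7.

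Levels at 13 months compared with 4 months separated a small group. Fdft1, Msmo1 and Stard4 were higher by 0.322 or more (3.98% of all genes), and Insig2 was lower by as much (3.14%). None was 1.5-fold apart in either direction (0.837% and 0.457% of all genes). The median of the 26 was 0.045, with 15 higher and 9 lower (51.1% and 45.5% of all genes). Against 8 months the 21-month pool had 18 higher and 7 lower genes (51.7% and 45.4% of all), with a median of 0.19. Dhcr7 and Sqle were 1.5-fold higher in that comparison, and 2.66% of all genes were, while none of the 26 was 1.5-fold lower (0.699%) or 2-fold higher (0.941%). With quantile normalization neither gene passed 1.5-fold here, and with cyclic loess 1 gene did. Past the lower mark of 0.322 were 8 genes, Dhcr7, Sqle, Lbr, Idi1, Npc2, Pmvk, Nsdhl and Fdps, against 7.56% of all. These comparisons share pools, so a chance deviation of the 21-month pool enters every one that uses it.

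**Figure D4:**
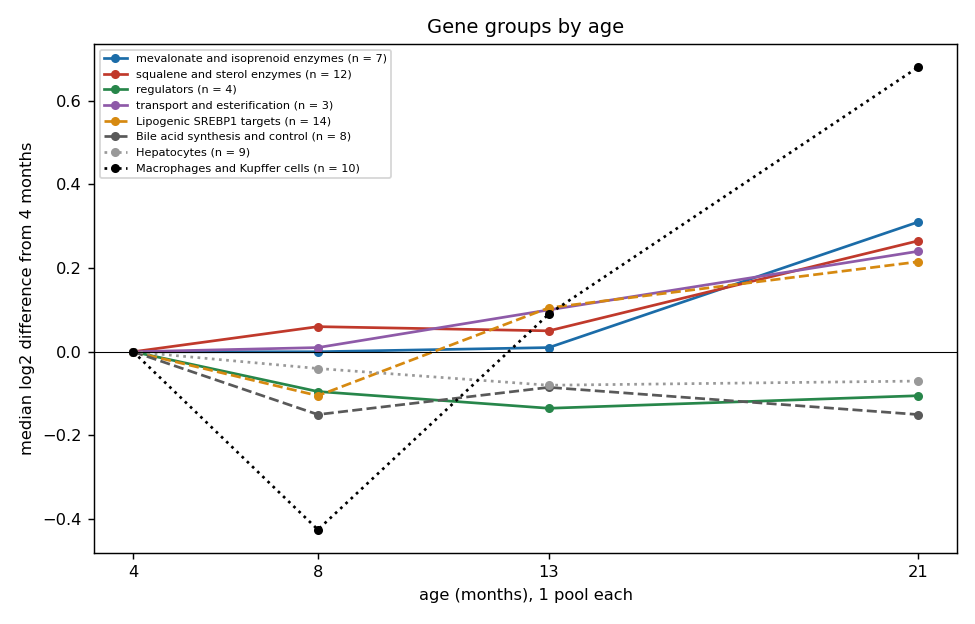
Median log2 difference from the 4-month pool (vertical axis) against age in months for the 4 groups of cholesterol genes (solid lines), for lipogenic and bile acid genes (dashed) and for markers of hepatocytes and of macrophages (dotted), with the number of genes in each group. At 21 months the enzyme groups stood at 0.31 and 0.265, the regulators at -0.105 and the macrophage markers at 0.68.

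Other genes that act on the same pathway were nearer to no difference. Of 14 measured genes of auxiliary enzymes, SREBP processing and sterol-regulated degradation 8 were higher and 5 lower at 21 than at 4 months, and none passed 1.5-fold. Their median was 0.015, and it turned to -0.02 with cyclic loess. Aacs, which activates acetoacetate for sterol synthesis, was at 6.31, 6.91, 7.05 and 6.78, and at 8 months it was 0.60 above 4 months. The site proteases that cleave SREBPs differed little, Mbtps1 by 0.05 and Mbtps2 by -0.07. The ubiquitin ligase genes Rnf145 and Syvn1 were higher by 0.25 and 0.24, and Erlin1 by 0.15.

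Of 17 genes of lipoprotein uptake, sterol efflux, storage and the sterol receptor LXR, 12 were higher and 4 lower, none past 1.5-fold, with a median of 0.06. The lipoprotein receptor gene Lrp1 and its chaperone Lrpap1 were higher by 0.26 and 0.23, and the endosomal sorting gene Snx17 by 0.28. Nceh1, a cholesterol ester hydrolase, was at -0.23, and Nr1h3, which encodes LXR-alpha, at 0.12. Genes that draw on isoprenoids outside sterol synthesis had a median of 0.06 over 10 genes, 9 higher and 1 lower. Pdss2, of ubiquinone side chain synthesis, was higher by 0.21, and the protein prenylation gene Fntb was at -0.08.

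Lipogenic genes, many of them targets of the related factor SREBP1 and its own gene Srebf1 among them, were set beside the sterol enzymes. Of 14 measured, 10 were higher and 3 lower at 21 than at 4 months, with a median of 0.215, and 3 passed 1.5-fold. Thrsp differed by 0.98, Srebf1 by 0.90, Fasn by 0.66 and Acly by 0.35. At 8 months the median of this list was -0.105, where that of the squalene and sterol enzymes was 0.06. No test of that difference could be made. Srebf1 was at 8.00, 8.18, 8.56 and 8.90, higher at every step, unlike Srebf2.

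Bile acid synthesis is the main route by which the liver disposes of cholesterol. The list of 8 genes covered bile acid synthesis and its control, and not all were enzymes. Of the 8, 7 were lower and 1 higher at 21 than at 4 months. Their median was -0.15 and none passed 1.5-fold. Cyp8b1 was at -0.52, Cyp7a1, the rate-limiting enzyme, at -0.41, Cyp39a1 at -0.20 and Cyp27a1 at -0.19. At 13 months, where Insig2 was lowest, Cyp7a1 was highest, at 9.96 against 8.90 to 9.52. Nr0b2, a repressor of Cyp7a1 named here after its values were seen, was at 8.93, 8.67, 7.80 and 8.85, lowest in the same pool.

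The array signal was that of liver, with the hepatocyte genes Alb at 13.43 to 13.49, Ttr at 13.08 to 13.12 and Apoa1 at 13.11 to 13.14 over the pools. Of the 9 measured hepatocyte markers 7 were lower and 2 higher at 21 than at 4 months, none past 1.5-fold, and at 8 vs 4 months Tat was at -0.66 and Ass1 at -0.50. The 9 had mean levels of 11.64, 11.48, 11.52 and 11.54 over the ages. Macrophage markers differed more than any cholesterol group. All 10 were higher at 21 than at 4 months and 6 passed 1.5-fold, with a median of 0.68, and all 10 were lower at 8 months. Their mean level was 7.48, 6.97, 7.63 and 8.25, and the lowest single value was 4.42, for Marco at 8 months. Neutrophil markers had mean levels of 4.59, 4.53, 4.79 and 5.71 over 5 genes. At 21 vs 4 months Prtn3, S100a9 and S100a8 were higher by 2.73, 1.45 and 1.35, whereas Ngp was at 0.19 and Elane at -0.11. Mean levels of endothelial and stellate cell markers spanned 7.00 to 7.21 and 7.07 to 7.20. Only 2 of 6 bile duct markers and 3 of 8 lymphocyte markers were above the filter. In bulk RNA a change in the number of cells of a type and a change of RNA per cell cannot be told apart. The part of these markers' cells in the levels of Npc2, Lbr, Dhcr7 and the other genes that were lowest at 8 and highest at 21 months was not tested.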

How the data were processed

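Liver RNA of 4 age groups was measured on 1 array each. The table deposited by the authors holds log2 values for 45101 probe sets, from RMA per the submitters' processing notes. The RMA version, and which arrays were normalized as 1 batch, were not stated in these sources. RMA equalises the distributions of arrays, which hides a general shift between pools, and it shrinks differences of dim signals.

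Probe sets were named by the platform annotation, with 34945 of them having 1 symbol; 34741 were matched by gene identifier to RefSeq's GRCm38.p6 gene table. Control probe sets (64) were left out. The probe set with the highest mean stood for a gene, and genes with a mean of at least 3.74 were kept. Log2 differences were counted past 1.5-fold, and no test was run. The single-array design limits the precision. Members and lists were chosen with earlier results of these data known. All measured members are named; of each comparison list, up to 4 genes with the largest difference between 21 and 4 months and the sterol regulators are named. The planned protein sequences of Insig1 and Insig2 are not shown here. Counting was tested on simulated data. Alternatives covered the probe set, the filter, the scaling and the threshold. The alternative scalings came from limma 3.58.1 in R 4.3.3, the rest from pandas 2.3.3 and numpy 2.4.6 in Python 3.11.15, with figures by matplotlib 3.10.9.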

Additional observations from a re-analysis of the deposited data

How the results depend on the processing

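Over the main setting and 8 alternatives of probe set, filter, scaling and summary, the median at 21 vs 4 months lay between 0.19 and 0.28. That at 21 vs 8 months lay between 0.124 and 0.30, and that at 21 vs 13 months between 0.095 and 0.19. The settings held 26 genes, but 23 with the second brightest probe set or a filter at the 75th percentile. The alternative of summary was a mean over the genes in place of the median. The mean of all probe sets of a gene took in its probe sets below the filter as well. For the 4 regulators alone the median at 21 vs 4 months was -0.105 in the probe sets used. With the mean of all probe sets Insig1 and Scap were at -0.17 and -0.12, and Insig2 and Srebf2 at 0.06 and 0.07. The count past 1.5-fold depended on the setting. At 21 vs 4 months 2 genes were higher, but 1 with the mean of all probe sets, quantile normalization or cyclic loess. It was 4 of 23 with the second brightest probe set, 5 with any probe set, 5 at the lower mark of 0.322 and 0 at 2-fold. At 21 vs 8 months the count of 2 became 0 with quantile normalization, 1 with cyclic loess, 8 at the lower mark and 0 at 2-fold. At 21 vs 13 months 0 became 1 with the mean of all probe sets, 2 of 23 with the second brightest and 6 at the lower mark. At the lower mark the other counts were 2 higher and 1 lower for 8 vs 4, 1 lower for 13 vs 8, and 3 higher and 1 lower for 13 vs 4 months. Shares of all genes at the lower mark, at 2-fold and with any probe set are given above. Those with the mean of all or the second brightest probe set and with the other scalings were not counted, so these member counts cannot be set against them. Genes higher at every step numbered 3, but 6 with cyclic loess and 1 with steps of at least 0.1. Genes lower at every step numbered 1, but 2 with the mean of all probe sets, quantile normalization or cyclic loess, and 0 with centring on the median or steps of at least 0.1. The cause was not tested. An alternative value was taken as moved when it differed by at least the SD between probe sets of a gene, or a count by more than 1.5 times. Of 176 single-gene alternatives at 21 vs 4 months 165 were within that SD. Many of these could not move, because a filter leaves a gene's value as it is and centring shifts all genes alike. Nor could the choice of probe set move a gene that has 1. All alternatives that moved came from the choice of probe set. Values lay on both sides of 0 for Ggps1, Insig2, Srebf2 and Npc1, of which Ggps1 and Npc1 were at 0.00 in the main setting. No paired analysis was possible because each age has 1 array. Dim probe sets are limited by signal over background, for which no detection calls were used.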

Other observations

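Clock genes were measured beside the cholesterol genes, since transcripts of both are known to vary over the day in liver. Of 10 clock genes above the filter 6 were higher and 3 lower at 21 than at 4 months, with a median of 0.135. Dbp differed by 0.81, Per3 by 0.60, Ciart by 0.56 and Nr1d1 by 0.45. Dbp was at 7.98, 9.07, 9.14 and 8.79 over the ages, so its 4-month pool stood apart. The time of day at which livers were taken was not stated in these sources, and whether the cholesterol genes follow it was not tested.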
